A study of Mus musculus with 21 samples.

Results

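The genes described here are 42 protein-coding genes of skeletal muscle, chosen by gene symbol from a list that covers the contractile filaments and the calcium and energy machinery of the muscle fibre. All 42 were present in both gene tables, which hold 45777 genes each. The tissue was the thyroid gland of C57BL/6J mice, measured by RNA sequencing in 21 libraries that fall into 7 groups of 3. Empty mice received the pLIVE-Empty vector. TSH mice received pLIVE-TSHB and pLIVE-CGA, which carry both subunits of thyrotropin (TSH), the hormone that drives thyroid growth. pLIVE is a plasmid made for expression in the liver, so the hormone reaches the thyroid through the blood. TSH-MMI and Empty-MMI mice also received thiamazole (MMI), a drug that blocks thyroid hormone synthesis. Empty, TSH and TSH-MMI were sampled at 1 week and again at 4 weeks, and Empty-MMI at 4 weeks. The tag "Hyperthyroidism induction" stands in the labels of all 21 samples, the Empty groups included, and the labels give no age. Nor do they say whether the 3 libraries of a group came from 3 mice, so the p-values here reflect only how much these samples varied. Totals ran from 32244842 to 51886245 counts per library.

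Skeletal muscle contracts by the sliding of 2 sets of filaments in the sarcomere. Thick filaments are built of myosin heavy chains (Myh genes) and light chains (Myl genes), and thin filaments of actin, tropomyosin, nebulin and the troponin complex. Calcium released from the sarcoplasmic reticulum binds troponin and lets myosin pull on actin, and creatine kinase and the glycolytic enzymes restore the ATP that this costs. Fast and slow fibres use different genes for myosin, troponin and calcium pumps, and embryonic and perinatal myosins precede the adult forms during development and regeneration. Thyroid follicular cells have no sarcomeres, and the strap muscles of the neck, the larynx and the upper oesophagus lie against the gland. The question put to the data was how much of these transcripts each library held and what weight they had in the group differences.

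The 42 genes took between 0.00530% and 1.996% of all counts in a library, and 3 of the 4 highest shares were those of Empty at 4 weeks. At 4 weeks the Empty libraries gave 1.996%, 0.605% and 1.25% (mean 1.28% ± 0.696, SD, n = 3). The Empty-MMI libraries gave 0.0185%, 0.0570% and 0.0138%. Those of TSH gave 0.00530%, 0.212% and 0.139%, and those of TSH-MMI 0.00755%, 0.0197% and 0.0845%. No library of the treated groups reached the lowest Empty library of that time. The exact (Clopper-Pearson) 95% interval was 0.00506% to 0.00556% for the lowest library, TSH replicate 1 at 4 weeks, and 1.992% to 1.9995% for the highest, Empty replicate 1 at 4 weeks, and covers counting error only. At 1 week Empty gave 0.00708%, 0.164% and 0.281%, TSH gave 0.140%, 0.0347% and 0.668%, and TSH-MMI gave 0.147%, 0.0236% and 0.0198%. The groups of 1 week overlapped, and within each group of either time the largest share was several times the smallest. The share is a part of all counts, so it also depends on how much RNA the other cells gave. In bulk tissue, fewer muscle fibres, less RNA per fibre and more RNA from other cells cannot be told apart.

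**Figure D1:**
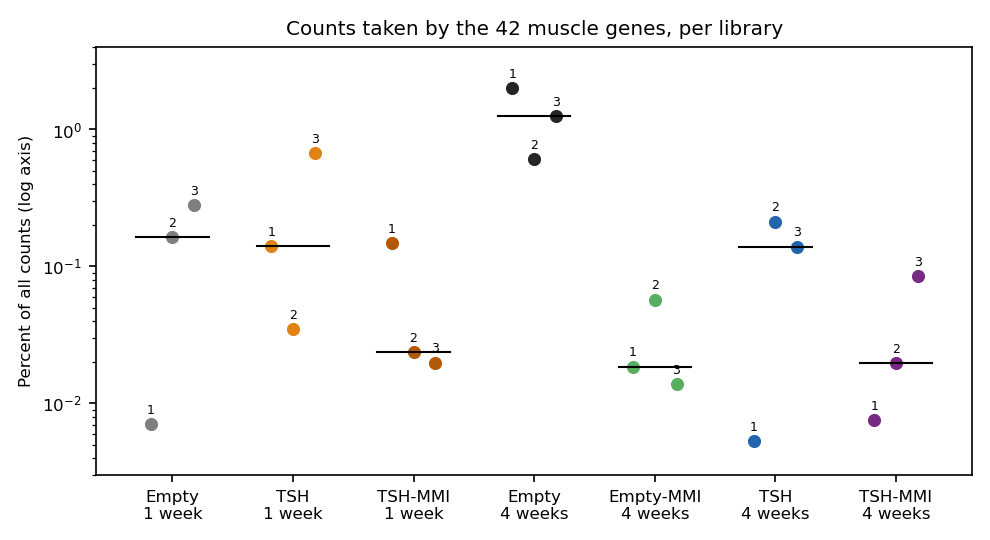
Percent of all counts taken by the 42 muscle genes in each library, on a log axis, by group; points are libraries numbered by replicate and lines are group medians. The 3 Empty libraries of 4 weeks sit between 0.605% and 1.996%, above each of the 9 other libraries of that time, and the groups of 1 week overlap.

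The difference in this share from Empty at 4 weeks was -1.16 percentage points for TSH, -1.25 for Empty-MMI and -1.25 for TSH-MMI (two-sided exact permutation test, p = 0.1 for each, the smallest that 3 libraries against 3 can give). At 1 week the difference was 0.130 points for TSH and -0.0871 for TSH-MMI against Empty (exact permutation p = 0.7 and 0.4) and -0.218 for TSH-MMI against TSH (exact permutation p = 0.3). The first of these turned to -0.0630 without TSH replicate 3. At 4 weeks TSH-MMI differed from Empty-MMI by 0.00748 points and from TSH by -0.0817 (exact permutation p = 0.8 and 0.4). The Empty groups of the 2 times were sampled apart, and the same vector stood at a mean of 0.151% ± 0.137 at 1 week and 1.28% at 4 weeks.

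Among the thick filament genes, those of fast fibres were abundant. Mylpf, the regulatory light chain of fast muscle, stood at 905, 229 and 568 FPKM in the Empty libraries of 4 weeks. With MMI alone it stood at 4.25, 18.1 and 4.83 FPKM, with TSH alone at 0.860, 85.6 and 48.5, and with both at 0.933, 4.07 and 38.3. At 1 week its levels were 0.890, 63.5 and 88.0 FPKM with the empty vector, 57.8, 11.6 and 304 with TSH, and 56.4, 4.71 and 6.59 with TSH and MMI. The lowest Empty library of 4 weeks was above all 9 others of that time, and at 1 week the 3 groups overlapped. Myl1, the fast essential light chain, reached 519 FPKM, and Mybpc1 and Mybpc2, the slow and fast forms of myosin-binding protein C, reached 31.9 and 51.6, each in Empty replicate 3 at 4 weeks.

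Among thin filament genes Acta1, skeletal muscle actin, was the most abundant, at 2391, 457 and 957 FPKM in the Empty libraries of 4 weeks and at 0.337 in TSH-MMI replicate 1 of that time. The 3 fast troponin genes had the same order as Acta1 among the Empty libraries of 4 weeks. Tnnt3, which binds tropomyosin, reached 1052 FPKM, Tnnc2, which binds calcium, 1035, and Tnni2, the inhibitory subunit, 895, all in Empty replicate 1 at 4 weeks. Neb, the giant ruler of the thin filament, reached 4.48 FPKM. Tpm2, a tropomyosin that is also made outside skeletal muscle, did not go below 7.14 FPKM in any library.

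Of the Z-disc and elastic filament genes, Actn3, the α-actinin of fast fibres, reached 155 FPKM, Tcap, which caps titin, 109, and Myoz1, which binds calcineurin at the Z-disc, 107. Myot, Actn2, Xirp2 and Ttn, the titin gene, reached 26.7, 37.7, 12.03 and 2.37 FPKM, and each of the 7 was highest in an Empty library of 4 weeks. Calcium handling was led by Atp2a1, the calcium pump of fast fibres, at 299.9, 205 and 414 FPKM in Empty at 4 weeks. Pvalb, a calcium buffer of the fastest fibres, had a different order, with 85.7, 152 and 393 FPKM in those libraries. Ryr1, the calcium release channel, and Cacna1s, its voltage sensor, reached 13.9 and 11.6 FPKM. Casq1, which stores calcium in the reticulum, and Trdn, which anchors it there, reached 114 and 12.3 FPKM.

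The energy genes were led by Ckm, muscle creatine kinase, at 1334, 306 and 541 FPKM in Empty at 4 weeks against 0.0430 in TSH-MMI replicate 1 of that time. Mb, the oxygen store myoglobin, stood at 551, 70.0 and 111 FPKM in the same Empty libraries. Eno3 and Pgam2, muscle forms of 2 glycolytic enzymes, reached 310.2 and 124 FPKM. Usp13, a deubiquitinating enzyme and the one member outside the filament, calcium and energy groups, reached 7.28 FPKM. Counting over all members, 22 were highest in Empty replicate 1 at 4 weeks, 14 in replicate 3 and 5 in replicate 2, and Myh13 alone was highest in Empty replicate 3 at 1 week.

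**Figure D2:**
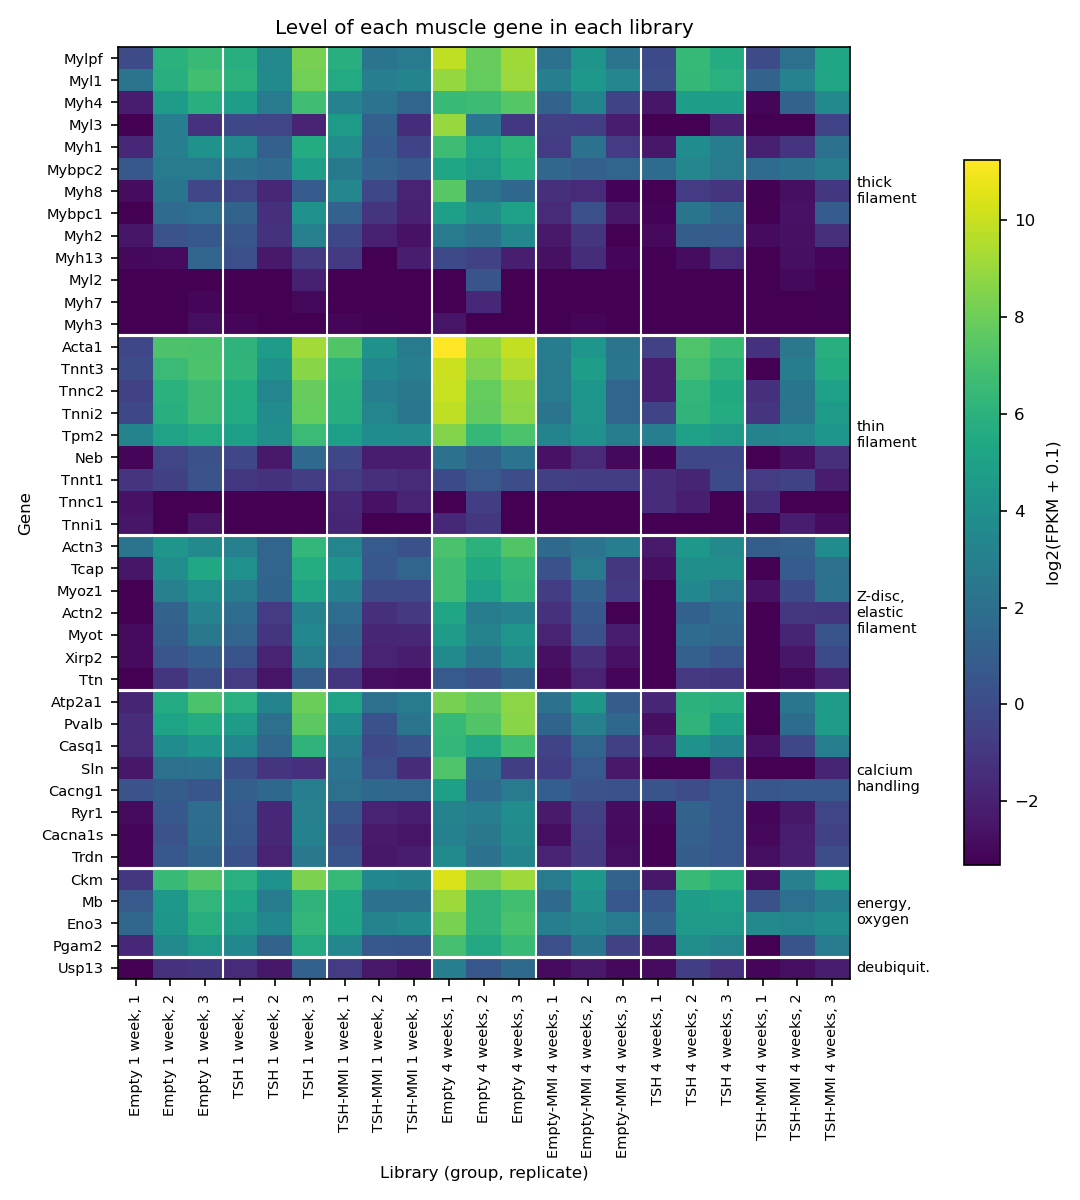
Level of each of the 42 genes, as log2(FPKM + 0.1), in each of the 21 libraries, with genes grouped by role and libraries by group and replicate. Most rows rise and fall together by library and are brightest in the 3 Empty libraries of 4 weeks, while Myh7, Myl2, Tnni1, Tnnc1 and Myh3 are dark nearly throughout and Tpm2, Mybpc2, Cacng1 and Tnnt1 vary less.

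Most members moved together from library to library. The median Spearman rho of a member's log2 CPM with the mean of the other members was 0.966 and the median Pearson r 0.964 over 21 libraries, and 29 of 42 had a rho of at least 0.9. By permutation test with 100000 resamples, 37 of 42 had a Benjamini-Hochberg adjusted p under 0.05. Such counts were not made over all genes, and the members were chosen as muscle genes. They therefore give no contrast with other genes. Without the 2 libraries farthest from the median in the members' mean, the median Pearson r was 0.971. The median rho was 0.933 over the 9 libraries of 1 week, 0.979 over the 12 of 4 weeks and 0.940 for deviations from the group means, so the members also moved together within groups. Ckm and Tnnc2 had a rho of 0.991. The lowest were Tnnc1 at -0.238, Myl2 at 0.231, Tnni1 at 0.313, Tnnt1 at 0.426, Myh7 at 0.441 and Myh3 at 0.460, all low in counts, and then Cacng1 and Myl3 at 0.552, Sln at 0.666 and Myh13 at 0.727. Outside the members, the genes most like their mean over 21 libraries included Ldb3, Klhl31, Klhl41, Myo18b, Cmya5, Smpx, Itgb1bp2, Smyd1 and Mylk4, with a rho from 0.990 down to 0.974.

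Of the slow-fibre and embryonic genes, Myh7, Myl2, Tnni1, Tnnc1 and Myh3 were near 0 even where muscle transcripts were most abundant, whereas the slow light chain gene Myl3, described below, was not. Myh7, the slow and cardiac myosin, had 0 counts in 17 libraries and at most 72, in Empty replicate 2 at 4 weeks. Myl2, the slow regulatory light chain, had 46 counts in that same library, 6 in TSH replicate 3 at 1 week, 2 in TSH-MMI replicate 2 at 4 weeks and 0 in all others. Tnni1, the slow troponin I, reached 27 counts and Tnnc1, the slow and cardiac troponin C, 21, both again in Empty replicate 2 at 4 weeks, and Myh3, the embryonic myosin, reached 25 in replicate 1. A count of 0 allows up to 3 counts per library. None of the 5 passed the filter on low counts in the fits by time except Tnnc1 at 4 weeks, and Tnni1 passed it in the fit of all libraries. Tnnt1, the slow troponin T, was the steadier one, between 10 and 102 counts in each library.

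The 3 fast troponin genes summed to 2981, 775 and 1604 FPKM in Empty at 4 weeks against 1.06, 2.50 and 0.978 for their 3 slow counterparts. Their ratio was 2815, 310 and 1640 in those libraries, and 29.3, 128 and 19.9 in Empty-MMI. In TSH it was 1.79, 863 and 189, and TSH-MMI replicates 2 and 3 gave 23.0 and 652. The difference from Empty in the log2 ratio was -4.08 for TSH, -4.74 for Empty-MMI and -3.20 for TSH-MMI (two-sided exact permutation p = 0.2, 0.1 and 0.4). TSH-MMI replicate 1 had too few troponin counts for a ratio, since a library needed at least 50 over the 6 genes, so that group rests on 2 libraries. With 1 library left out, the log2 difference for TSH ran from -5.94 without TSH replicate 2 to -1.48 without TSH replicate 1. For TSH-MMI it ran from -5.62 without TSH-MMI replicate 3 to -0.788 without TSH-MMI replicate 2, and for Empty-MMI from -5.67 to -4.08. At 1 week the log2 ratio differed from Empty by 2.50 for TSH and by 0.19 for TSH-MMI (exact permutation p = 0.4 and 1.0). Slow troponin counts ran from 13 to 150 per library, of which Tnnt1 made 57.8% to 100%, so the ratio mostly follows the fast genes.

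Myosin heavy chain use differed between libraries. In mouse, Myh4, Myh1 and Myh2 encode the adult fast myosins IIb, IIx and IIa, Myh8 the perinatal one and Myh13 the one of extraocular and laryngeal muscle. Their genes lie in a row with Myh3 on chromosome 11, all on the plus strand, from 67078273 to 67371587 in the RefSeq annotation of GRCm38.p6. Myh4 took the largest part of the Myh counts in 16 of 21 libraries, Myh1 in 4 and Myh8 in 1. Among the 3 Empty libraries of 4 weeks it took 23.5% in replicate 1 against 69.4% and 67.2% in replicates 2 and 3. Myh8 took 47.2% of the Myh counts in replicate 1 (exact 95% interval 46.9% to 47.5%) against 3.40% and 1.20% in the others. Its counts there were 59297, 1571 and 890.

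**Figure D3:**
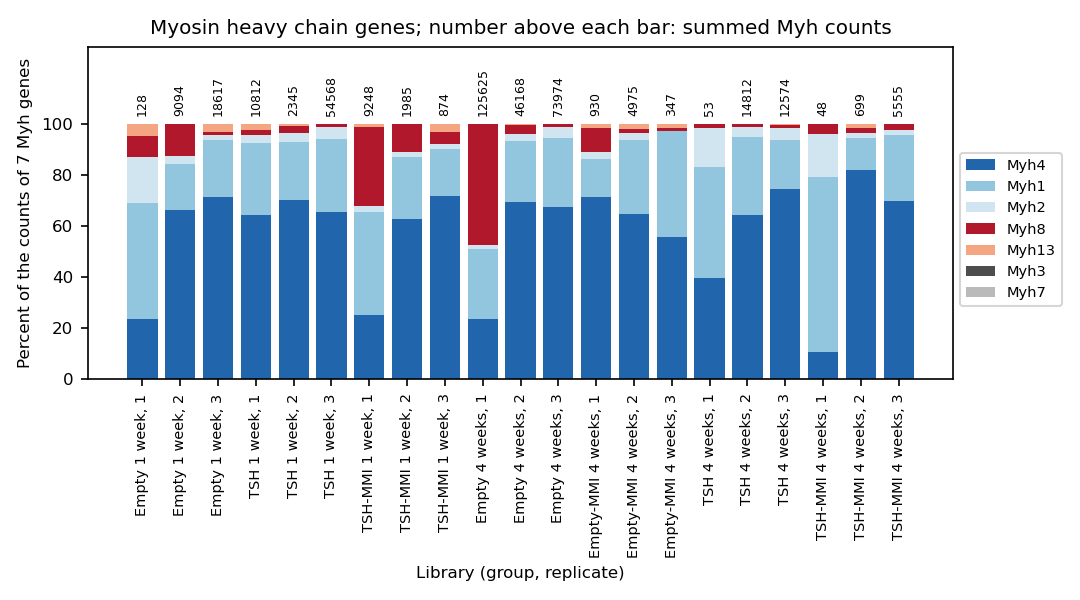
Share of each of the 7 Myh genes in their summed counts, in percent, per library, with the summed Myh counts printed above each bar. Myh4 takes most of the bar in most libraries, and Myh8 takes 47.2% in Empty replicate 1 at 4 weeks and 31.0% in TSH-MMI replicate 1 at 1 week; bars that rest on 128 counts or fewer are imprecise.

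Myl3 and Sln stood out in the same library as Myh8. Myl3, the essential light chain of slow and cardiac muscle, had 24829 counts in Empty replicate 1 at 4 weeks against 248 and 19 in replicates 2 and 3. Sln, the small inhibitor of the calcium pump, had 4335 against 117 and 14. Scaled to 100 counts of Mylpf, Myh8 stood at 157, 16.9 and 4.23 in these 3 libraries, Myl3 at 65.9, 2.66 and 0.0903, and Sln at 11.5, 1.26 and 0.0666. At 1 week, TSH-MMI replicates 1 and 2 held 153 and 131 counts of Myh8 per 100 of Mylpf, and Empty replicate 2 held 63.7, against 4.73 to 33.3 in the other 6 libraries of that time. Myl3 per 100 of Mylpf was 51.2, 54.2 and 13.6 in those 3 libraries. At 4 weeks Empty-MMI replicate 1 held 57.0 of Myh8 and 15.9 of Myl3 per 100 of Mylpf, on 151 counts of Mylpf. High values of Myh8 and Myl3 per 100 of Mylpf thus occurred in libraries of 4 groups, and in none of these groups in all 3 libraries. These genes were singled out after their values were seen. Pvalb, in contrast to Myh8, had 12.01 counts per 100 of Mylpf in replicate 1 against 84.3 and 87.7 in the others.

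Myh13 had a pattern of its own. It had 627 counts in Empty replicate 3 at 1 week, against 6 and 8 in the other Empty libraries of that time. TSH replicate 1 of 1 week followed with 272. In Empty at 4 weeks, where other members were highest, it had 264, 190 and 39. As a share of the Myh counts, Empty replicates 1, 2 and 3 of 1 week gave 4.69%, 0.0880% and 3.37%. The first rests on 128 Myh counts (exact 95% interval 1.74% to 9.92%). TSH-MMI replicate 3 of 1 week gave 3.20%, so this share did not set Empty replicate 3 apart. Ckmt2, the mitochondrial creatine kinase of muscle, was also highest in Empty replicate 3 at 1 week, with 2644 counts against 6 and 206. That library also held the most Krt5, a keratin of basal epithelium, with 1352 counts against 13 to 663 in the others. Krt4 and Krt13, from the same list of oesophageal or airway markers, had 0 counts there, and Scgb3a1 had 7. It also held the most Rag1, a thymocyte gene, with 2878. The part of those tissues in the Myh13 value was not tested.

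The promoters of 4 of these genes are shown as contrasting pairs: Mylpf, to which the others were scaled, with Myl3, and Myh4 with Myh8, its neighbour in the Myh row. Each is the 250 bases before a RefSeq start on GRCm38.p6, plus strand, 5′ to 3′. The windows are chr7:127211358-127211607 for Mylpf, chr11:67237562-67237811 for Myh4, chr11:67276874-67277123 for Myh8 and chr9:110763428-110763677 for Myl3. Capitals mark matches, which may overlap, to the E-box CANNTG bound by myogenic factors, the MEF2 motif, the CArG box of serum response factor and TATAAA, on either strand.
Mylpf: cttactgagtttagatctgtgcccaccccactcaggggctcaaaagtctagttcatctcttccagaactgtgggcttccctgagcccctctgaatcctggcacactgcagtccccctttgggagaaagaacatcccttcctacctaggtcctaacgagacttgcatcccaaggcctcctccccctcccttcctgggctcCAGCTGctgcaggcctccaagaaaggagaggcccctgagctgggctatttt
Myh4: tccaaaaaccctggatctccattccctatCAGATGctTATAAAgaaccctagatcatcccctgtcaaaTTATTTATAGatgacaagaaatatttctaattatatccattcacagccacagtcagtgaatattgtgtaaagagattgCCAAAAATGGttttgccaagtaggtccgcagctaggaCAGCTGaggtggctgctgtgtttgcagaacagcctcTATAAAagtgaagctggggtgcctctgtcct
Myh8: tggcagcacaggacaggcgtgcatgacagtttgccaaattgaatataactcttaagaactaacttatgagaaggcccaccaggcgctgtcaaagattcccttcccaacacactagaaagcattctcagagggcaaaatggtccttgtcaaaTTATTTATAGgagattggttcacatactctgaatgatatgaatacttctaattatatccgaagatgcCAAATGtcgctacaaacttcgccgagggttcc
Myl3: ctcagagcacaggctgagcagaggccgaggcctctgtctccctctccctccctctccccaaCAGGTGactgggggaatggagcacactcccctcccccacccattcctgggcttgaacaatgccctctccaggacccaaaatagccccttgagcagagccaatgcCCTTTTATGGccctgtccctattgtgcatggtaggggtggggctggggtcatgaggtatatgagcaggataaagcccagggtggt
Myh4 and Myh8 each held a MEF2 match, Myh4 and Myl3 a CArG match, and all 4 an E-box. Over the 300 bases from 250 before to 50 after the start, 32 of the 42 members had a window in RefSeq. The E-box CAGCTG was found in 50% of them and in 18.3% of 27025 genes with a window. MEF2 was found in 25% against 3.70%, CArG in 12.5% against 1.81%, TATAAA in 28.1% against 15.7% and CANNTG in 90.6% against 75.0%. Those of Acta1 and Ckm both held CAGCTG, which is itself a form of CANNTG. A match is a description of the sequence and not a site.

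Reads can be shared between the Myh genes. Of the 100-base stretches of each reference transcript, 9.73% of Myh1, 9.17% of Myh2, 6.61% of Myh8, 3.85% of Myh4, 3.46% of Myh13, 1.15% of Myh3 and none of Myh7 occurred in any of the 6 others. How such reads were assigned is not given in the sources used here, so small Myh values beside large ones are uncertain.

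A few members kept a higher level than most in libraries that held little muscle transcript. In TSH-MMI replicate 1 at 4 weeks, Tpm2 stood at 8.89 FPKM, Eno3 at 11.6, Mybpc2 at 3.30, Actn3 at 1.88 and Cacng1, a subunit of the muscle calcium channel, at 1.41, while Acta1 stood at 0.337 and Tnnt3 was listed at 0. Myl1 stood at 2.43 FPKM there. Actn3 did not keep its level in TSH replicate 1 of that time, at 0.104 FPKM. Tpm2, Eno3, Mybpc2, Actn3 and Cacng1 were chosen for a sum after these values were seen. Together they made 86.5% of the member counts in TSH-MMI replicate 1 at 4 weeks, a share that partly follows from the choice. Their share was 79.4% in TSH replicate 1 at 4 weeks and 70.7% in Empty replicate 1 at 1 week. In the Empty libraries of 4 weeks they made 12.4%, 11.6% and 11.9%. Cacng1 stood between 0.980 and 1.95 FPKM in each of the 9 treated libraries of 4 weeks while Mylpf ran from 0.860 to 85.6. Which cells gave this floor was not tested. Smooth muscle, which also makes tropomyosin, was present at a steady level, with 9 marker genes summing to 270 to 490 CPM over the 21 libraries.

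**Figure D4:**
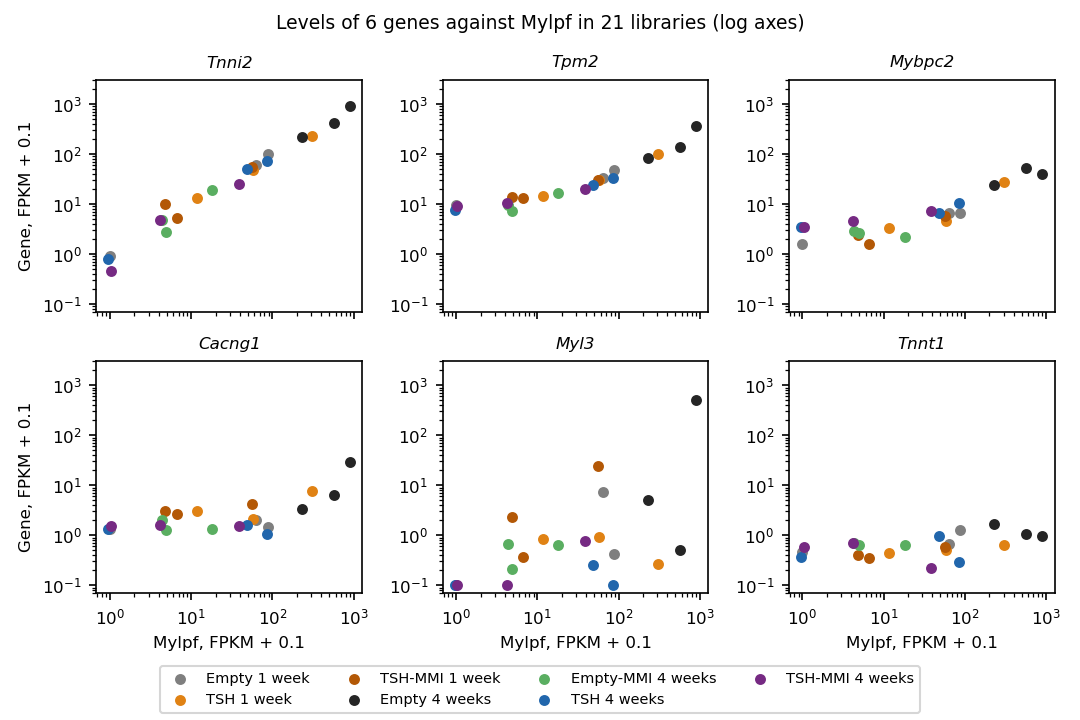
FPKM + 0.1 of 6 genes against that of Mylpf in the 21 libraries, on log axes, coloured by group. Tnni2 follows Mylpf over the whole range, Tpm2, Mybpc2 and Cacng1 level off where Mylpf is low, Myl3 is scattered, and Tnnt1 varies little.

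At 1 week none of the 37 tested members was called by edgeR's quasi-likelihood test in any of the 3 comparisons. The vector with TSH was compared with Empty to ask what TSH changes, and 24.1% of all 16956 genes tested were called there. For the members the count at an unadjusted p under 0.05 was 1, and DESeq2 called 1 higher. The median log2 fold change (log2FC) of the members was 0.89 against -0.00468 for all genes, and 32 of 37 were above 0. Acta1 stood at log2FC 1.28 (SE 1.97, edgeR adjusted p = 0.689) and Myh2 at 1.77 (SE 1.49, edgeR adjusted p = 0.446), and without TSH replicate 3 both turned, to -0.96 and -0.14. Leaving out TSH replicate 1 gave 1 member called higher.

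For TSH-MMI against Empty at 1 week edgeR called no member, against 21.6% of all genes. Of the members 1 had an unadjusted p under 0.05, DESeq2 and limma called none, and 1 was called lower without Empty replicate 1. The median member log2FC was -1.30, with 34 of 37 below 0. Cacng1 had all 3 TSH-MMI libraries above those of Empty in CPM, which held for 21.1% of all genes. Acta1 stood at log2FC -0.69 (SE 1.96, edgeR adjusted p = 0.846) and Myh2 at -1.53 (SE 1.57, edgeR adjusted p = 0.552). For TSH-MMI against TSH edgeR again called no member, against 0.0177% of all genes. No member had an unadjusted p under 0.05, DESeq2 and limma called none, and the median log2FC was -2.09. Acta1 stood at log2FC -1.96 (SE 2.01, edgeR adjusted p = 0.837) and turned to 0.28 without TSH replicate 3, and Myh2 stood at -3.29 (SE 1.61, edgeR adjusted p = 0.654). Groups that share control libraries, as here, do not give independent comparisons.

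At 4 weeks all 38 tested members had a fitted log2FC below 0 in each comparison with Empty, and a minority passed the test. TSH against Empty gave 7 lower and none higher, or 7 of 38 against 5.61% of all 17355 genes called lower. The members' median log2FC was -3.17 against -0.03 for all genes. For 36 of 38 the libraries of TSH were all below those of Empty, which held for 17.2% of all genes. Mybpc2 fell 5.23-fold in the fit to counts (log2FC -2.39, SE 0.47, edgeR adjusted p = 0.0121), and its FPKM went from 38.3 ± 13.7 to 6.76 ± 3.56 (mean ± SD, n = 3). All folds given with a log2FC are from the fits to counts. Cacng1 fell 9.43-fold (log2FC -3.24, SE 0.74, edgeR adjusted p = 0.0213), Tpm2 10.5-fold (log2FC -3.39, SE 0.81, edgeR adjusted p = 0.0272) and Eno3 9.30-fold (log2FC -3.22, SE 0.80, edgeR adjusted p = 0.0320). Usp13 also fell (log2FC -3.37, SE 0.89, edgeR adjusted p = 0.0391), as did Myh8 (log2FC -7.60, SE 2.11, edgeR adjusted p = 0.0482) and Myl3 (log2FC -11.32, SE 3.15, edgeR adjusted p = 0.0483). In Myh8 and Myl3 most of the Empty counts lay in replicate 1, and without it neither was called (log2FC -3.67 and -5.43, edgeR adjusted p = 0.168 and 0.109). Nor were Tpm2, Eno3 and Usp13, at log2FC -2.60, -2.51 and -2.61 (edgeR adjusted p = 0.0752, 0.0896 and 0.122). Cacng1 was called without it, at log2FC -1.85 (edgeR adjusted p = 0.00261), but not without any 1 of the TSH libraries. Without TSH replicate 3 the call of Mybpc2 was lost too (edgeR adjusted p = 0.0575). The number called was 2 without Empty replicate 1, 2 without TSH replicate 1, 2 without TSH replicate 2, 1 without TSH replicate 3 and 0 with only the compared groups fitted.

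The abundant contractile genes were not among those called in this comparison, although their libraries did not overlap. Acta1 was at 2391, 457 and 957 FPKM in Empty and at 0.623, 151 and 89.6 in TSH. Ckm was at 1334, 306 and 541 against 0.0880, 94.0 and 63.1. The spread inside the groups was of this size for most members, with a median biological coefficient of variation of 1.38 for the members against a common value of 0.1845 for all genes.

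Empty-MMI against Empty asks what MMI does without TSH, and edgeR called 3 of 38 members lower and none higher, against 1.07% of all genes called lower. The median log2FC of the members was -5.27, and 34 of 38 had libraries all below those of Empty, against 10.2% of all genes. Mybpc2 fell 14.8-fold in the fit to counts (log2FC -3.89, SE 0.51, edgeR adjusted p = 0.0167), and stood at 2.45 ± 0.340 FPKM in Empty-MMI (mean ± SD, n = 3). Usp13 fell 47.8-fold (log2FC -5.58, SE 1.04, edgeR adjusted p = 0.0426) and Tpm2 23.6-fold (log2FC -4.56, SE 0.85, edgeR adjusted p = 0.0444). At an unadjusted p under 0.05 there were 35 members, and DESeq2 called 21. The 1.07% of all genes is for edgeR's adjusted p and gives no background for these counts. Without Empty replicate 1 Usp13 and Tpm2 stood at log2FC -4.81 and -3.76 and were not called (edgeR adjusted p = 0.0952 and 0.0957). The number called was 0 without any of the 3 Empty-MMI libraries in turn, 1 without Empty replicate 3 and 5 without Empty replicate 2.

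TSH-MMI against Empty gave the most calls, 10 of 38 lower and none higher, against 5.97% of all genes called lower. The median member log2FC was -5.06, and 36 of 38 had libraries all below those of Empty, against 15.0% of all genes. Mybpc2 fell 8.02-fold (log2FC -3.00, SE 0.49, edgeR adjusted p = 0.00431), Usp13 40.4-fold (log2FC -5.34, SE 1.02, edgeR adjusted p = 0.00991) and Tpm2 21.9-fold (log2FC -4.45, SE 0.85, edgeR adjusted p = 0.0102). Eno3 fell 14.7-fold (log2FC -3.88, SE 0.82, edgeR adjusted p = 0.0161) and Cacng1 8.97-fold (log2FC -3.16, SE 0.74, edgeR adjusted p = 0.0211). Myh2, the IIa myosin, was at 6.33, 4.27 and 10.7 FPKM in Empty and at 0.0320, 0.0559 and 0.285 in TSH-MMI. It fell with log2FC -5.74 (SE 1.45, edgeR adjusted p = 0.0326), as did Myh8 (log2FC -8.43, SE 2.22, edgeR adjusted p = 0.0384) and Mb (log2FC -5.80, SE 1.58, edgeR adjusted p = 0.0434). Sln and Myoz1 completed the 10. Without Empty replicate 1, Cacng1 stood at log2FC -1.78 (edgeR adjusted p = 0.00278) and Myh8 at -4.51 (edgeR adjusted p = 0.101). Usp13, Tpm2 and Eno3 were called without it, at log2FC -4.57, -3.66 and -3.17 (edgeR adjusted p = 0.0242, 0.0232 and 0.0398). Mb and Myh2 lost their calls without any 1 of the 6 libraries, with log2FC from -6.62 to -4.43 for Mb and from -7.33 to -5.26 for Myh2. Cacng1 lost its call without any 1 of the TSH-MMI libraries, Eno3 without TSH-MMI replicate 1 or 2, and Tpm2 without replicate 1. The number called was 5 without Empty replicate 1, 2, 4 and 6 without TSH-MMI replicates 1, 2 and 3, and 33 by DESeq2. The 5.97% of all genes is for the main edgeR fit and gives no background for these counts.

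**Figure D5:**
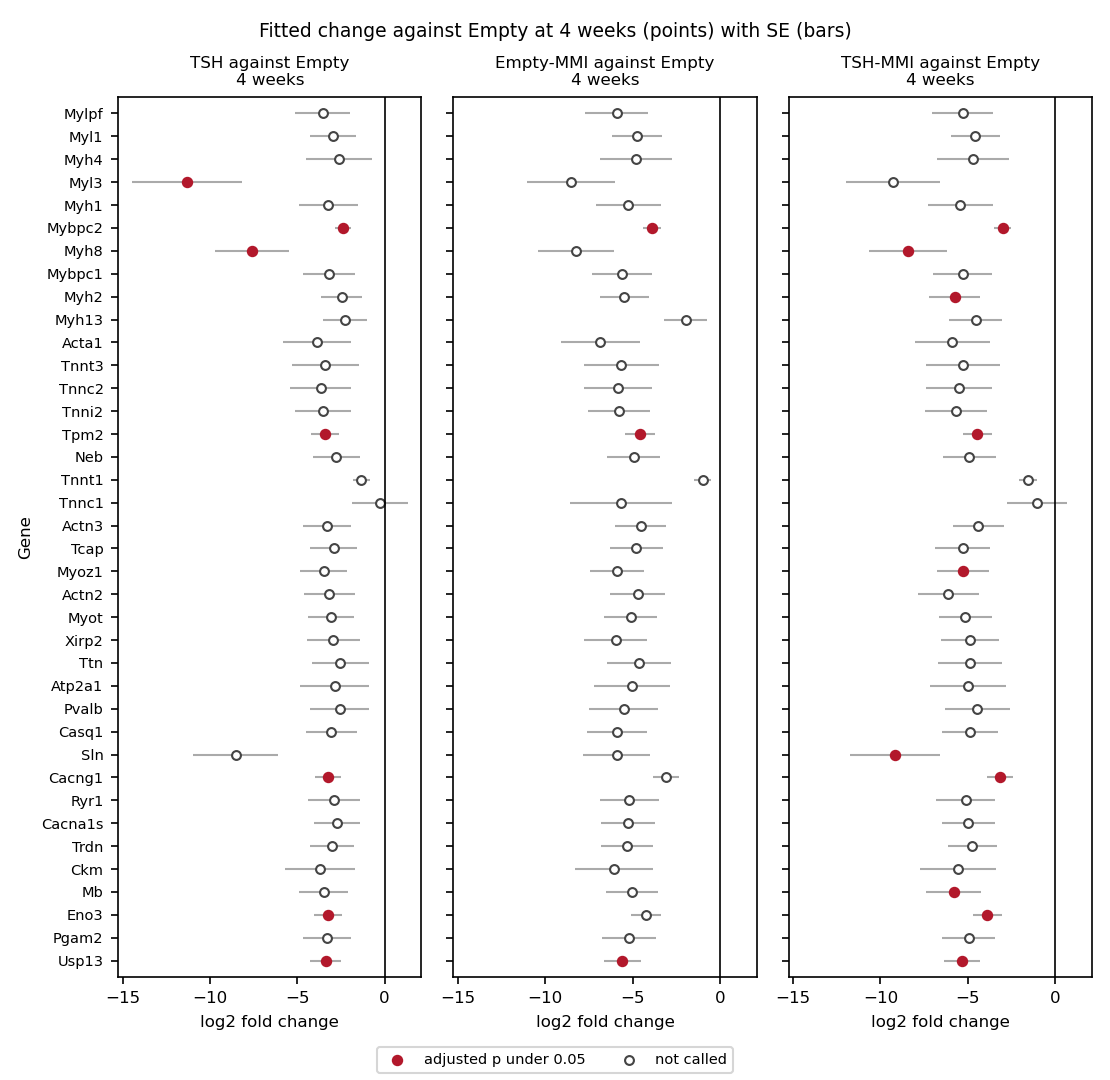
Fitted log2 fold change of each of the 38 tested genes against Empty at 4 weeks, with the standard error as bars, for 3 comparisons that share the Empty libraries; filled points have an edgeR adjusted p under 0.05. All points lie below 0, and 7, 3 and 10 of them are filled, among them Mybpc2, Tpm2 and Usp13 in all 3 panels.

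TSH-MMI was also compared with the other treated groups of 4 weeks, and no member was called in either comparison, which does not show equal levels. TSH-MMI against Empty-MMI gave 0 calls among 38 by edgeR, by DESeq2 and by limma, with no member at an unadjusted p under 0.05, against 4.24% of all genes called. The median member log2FC was 0.13, with 25 of 38 above 0. Acta1 stood at log2FC 0.96 (SE 1.78, edgeR adjusted p = 0.843) and turned to -1.995 without TSH-MMI replicate 3. Myh2 stood at log2FC -0.27 (SE 1.53, edgeR adjusted p = 0.952) and turned to 1.42 without Empty-MMI replicate 2, to 0.16 without TSH-MMI replicate 1 and to 0.06 without replicate 2. TSH-MMI against TSH gave 0 calls by the same tools and 1 member at an unadjusted p under 0.05, against 0.0173% of all genes called. There the median member log2FC was -1.88, with 36 of 38 below 0. Acta1 stood at log2FC -2.002 (SE 1.81, edgeR adjusted p = 0.806) and Myh2 at -3.28 (SE 1.38, edgeR adjusted p = 0.591).

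Whether the effect of TSH differed between the times was tested in a fit of all 21 libraries. Of 38 tested members 1, Cacng1, passed, against 1.35% of all 17715 genes. At 1 week Cacng1 stood at 1.22, 1.89 and 1.39 FPKM with the empty vector and at 1.98, 2.94 and 7.66 with TSH. At 4 weeks it stood at 28.9, 3.25 and 6.17 with the empty vector and at 1.25, 0.980 and 1.53 with TSH. In FPKM the TSH libraries were all above the Empty libraries at 1 week and all below them at 4 weeks, but in CPM the lowest TSH and the highest Empty library of 1 week were both at 2.53. The difference of the effects was log2FC -4.67 (SE 0.93, edgeR adjusted p = 0.0264), and the gene lost its call without any of 6 libraries in turn (TSH replicates 1, 2 and 3 at 4 weeks, TSH replicate 3 at 1 week, Empty replicates 1 and 2 at 1 week, adjusted p = 0.0693, 0.0680, 0.0548, 0.0717, 0.0670 and 0.0538). For TSH-MMI no member passed, against 0.0169% of all genes by edgeR's adjusted p. At an unadjusted p under 0.05 there were 8 members, and DESeq2 called 1, with no share of all genes beside these counts. Acta1 stood at log2FC -5.18 (SE 2.77, edgeR adjusted p = 0.634) and Myh2 at -4.22 (SE 2.09, edgeR adjusted p = 0.600).

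Other genes of muscle were read from 4 lists beside the members. Of 15 Z-disc, M-band and scaffold genes, 5 were called lower in TSH, 2 in Empty-MMI and 13 in TSH-MMI against Empty at 4 weeks, and none higher. Of 10 genes of the triad and of calcium release, 5, 3 and 8 were lower, of 11 energy genes 6, 4 and 7, and of 10 tested regulators and junction genes 2, 3 and 7. Over all genes 5.61%, 1.07% and 5.97% were called lower in these comparisons. The medians of log2FC over the Z-disc list were -3.25, -4.95 and -4.79. Pfkm, the muscle form of phosphofructokinase, fell in each of the 3 (log2FC -1.59, -1.89 and -1.995, edgeR adjusted p = 0.00143, 0.00739 and 0.000362). Jph2, a junctophilin that holds the triad together, also fell in each (log2FC -2.31, -3.49 and -3.02, edgeR adjusted p = 0.0164, 0.0238 and 0.00514). At 1 week 3 of these genes were called higher in TSH, and 2 higher and 1 lower in TSH-MMI, against Empty, of 45 tested. Over all genes 24.1% and 21.6% were called in either direction there.

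How far the transcripts reach into the group differences was read from genes that track the members within groups at 1 week. A gene tracked them where its deviations from the group means correlated with those of the members at a Pearson r of at least 0.9 with a slope of at least 0.5. Of 16919 other genes tested at 1 week, 76 (0.449%) did, among them 22 of the 45 tested genes of the 4 muscle lists. Nrap, a nebulin-related anchor of the thin filament, had the steepest slope, 1.48. At 4 weeks, 75 of the 76 were tested, and all 75 had a log2FC below 0 against Empty in each comparison. In TSH 22 of 75 (29.3%) were called lower, against 5.58% of all other genes, and they made 2.28% of the 967 genes called lower outside the members. In Empty-MMI 19 of 75 (25.3%) were lower against 1.06%, or 10.4% of the 183 lower calls, and in TSH-MMI 64 of 75 (85.3%) against 5.92%, or 6.24% of the 1026 lower calls. None was called higher. The tracking used libraries that are in no comparison of 4 weeks. Genes of the 4 muscle lists that did not pass the rule, Pfkm among them, are not counted in the 76. The shares of the lower calls therefore leave out part of the muscle genes.

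Removing the members before scaling moved the median log2FC of the other genes by at most 0.00594. The mean log2 CPM of the members was between 5.19 and 6.43 in Empty at 4 weeks and at most 3.36 in the other libraries of that time. With it as a covariate, the calls outside the members went from 1478 higher and 967 lower to 516 and 140 for TSH. They went from 99 and 183 to 0 and 0 for Empty-MMI, and from 1522 and 1026 to 152 and 45 for TSH-MMI. Without the covariate, leaving out TSH replicate 3 gave 1318 calls in TSH and leaving out TSH-MMI replicate 1 gave 1413 in TSH-MMI. In Empty-MMI the number was 115 without Empty replicate 1 and 20, 115 and 29 without Empty-MMI replicates 1, 2 and 3. Since the members' mean does not overlap between Empty and the others, its effect on these genes and that of the treatment cannot be told apart.

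Markers of other tissues were read beside these results. Of 10 cardiac markers, Nppa was at 0 counts in all 21 libraries and Myh6, the cardiac myosin, reached 11. Actc1, which skeletal muscle also makes when immature, reached 12287 in Empty replicate 1 at 4 weeks. The next highest Actc1 value was 3165, in Empty replicate 3 at 1 week. Smooth muscle markers gave 0 of 9 calls in each comparison with Empty at 4 weeks. The 10 thyroid markers were high in all libraries, with summed levels of 170432 to 336605 CPM, and Tg alone took 17.2% to 30.5% of counts. Parathyroid markers ranged from 275 to 19145 CPM in Empty at 4 weeks and from 47.1 to 7958 in TSH. Of 6 adipocyte markers, TSH and TSH-MMI each had 2 called lower at 4 weeks, and Empty-MMI none, where 5.61%, 5.97% and 1.07% of all genes were lower. The summed immature thymocyte markers at 1 week reached 187 CPM in the third Empty library and 23.7 in the second TSH-MMI library, against at most 4.39 in any other library, and no member was called at 1 week without these 2 libraries. The part of these tissues in the muscle values was not tested.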

How the data were processed

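Total RNA of mouse thyroid was sequenced from poly(A) libraries made with a stranded kit, per the labels' protocols. Alignment to mm10 and assembly tools are listed in the submitters' processing notes (HISAT2 2.1.0 and StringTie 2.1.3b, with Trimmomatic 0.38 for trimming). How reads were counted, and on which annotation, is not stated there. Per gene, the authors deposited raw read counts, FPKM and TPM, of which the TPM values were not used. Counts were tested with edgeR 4.0.16 (quasi-likelihood, TMM, default low-count filter, Benjamini-Hochberg threshold 0.05), with 1 fit over the 9 libraries of 1 week, 1 over the 12 of 4 weeks and 1 over all 21, the last for changes between times. Shares and ratios were compared by exact permutation tests. DESeq2 1.42.0, limma 3.58.1 on log2(FPKM + 1) and log2(FPKM + 0.1) and other settings were alternatives. FPKM describes levels per length. The code was tested on simulated data. The members and lists were chosen with earlier results of these data known. Named in each comparison were the called members with the smallest p, up to 8, or Acta1 and Myh2 where none was called (Myh7, the other gene of that rule, was too low to test).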

Additional observations from a re-analysis of the deposited data

Results flagged for a closer look

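The change in the TSH effect on Cacng1 from 1 to 4 weeks, log2FC -4.67 (SE 0.93, edgeR adjusted p = 0.0264), is listed because the effects at the 2 times differed by a test of the difference itself. Cacng1 was the 1 member of 38 to do so. In the separate fits its log2FC for TSH against Empty was 1.44 at 1 week (SE 0.48, edgeR adjusted p = 0.0601) and -3.24 at 4 weeks. Empty replicate 1 at 4 weeks, the library with the largest share of muscle transcripts, stood at 28.9 FPKM, and without it the change was -3.27 (edgeR adjusted p = 0.0156).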

How the results depend on the processing

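Counts of members called moved most with the test. The shares of all genes given above are for the main edgeR fits, not for the settings below. In TSH against Empty at 4 weeks (7 calls), limma on log2(FPKM + 1) gave 18, no low-count filter 4, the compared groups alone 0 and leaving out 1 library 1 to 8. In Empty-MMI against Empty (3 calls), DESeq2 gave 21, limma 12 and, with a pseudocount of 0.1, 5, no filter 1, the compared groups alone 1 and leaving out 1 library 0 to 5. In TSH-MMI against Empty (10 calls), they gave 33, 26, 17, 6, 6 and 2 to 8. For changes between the times, DESeq2 gave 3 for TSH and 1 for TSH-MMI, limma on log2(FPKM + 1) gave 2 for TSH, and leaving out 1 library gave 0 to 1 for both. At 1 week DESeq2 gave 1 in TSH against Empty, the compared groups alone 1 in TSH-MMI against Empty, and leaving out 1 library 0 to 1 in each of these.

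No pairing by replicate number was seen: deviations of same-numbered libraries correlated at -0.25 to 0.27, and those of other pairs at -0.37 to 0.36. Groups of 3 libraries cannot exclude a pairing. With the replicate block the 3 comparisons with Empty at 4 weeks called 2, 1 and 6 members.

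Outside the members, leaving out 1 library gave 1318 to 2457 calls in TSH, 20 to 321 in Empty-MMI and 1413 to 2365 in TSH-MMI. The lowest came without TSH replicate 3, Empty-MMI replicate 1 and TSH-MMI replicate 1. With the members' mean as covariate they were 656, 0 and 197. In Empty-MMI they were 789 by DESeq2, 72 with the compared groups alone and 100 with the block. Tracking genes at an r of at least 0.95 gave 8, 5 and 35 lower calls, and log2(FPKM + 0.1) gave 12 in Empty-MMI.

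Uncalled values turned sign as follows. Without TSH replicate 3 at 1 week, Acta1 turned to -0.96 and Myh2 to -0.14 in TSH against Empty, Acta1 to 0.28 in TSH-MMI against TSH, and the share to -0.0630 points. With 1 library left out, the highest or lowest values of these were 1.80, 2.29, -4.29 and 0.254. In TSH-MMI against Empty at 1 week, Acta1 turned to 0.0636 with limma at a pseudocount of 0.1 and to 0.0572 without the 2 libraries with thymocyte transcripts, an alternative chosen after seeing the data. In TSH-MMI against Empty-MMI, Acta1 turned to -0.30 and -0.75 with limma and to -1.995 without TSH-MMI replicate 3. There Myh2 turned to 1.42, 0.16 and 0.06 without Empty-MMI replicate 2, TSH-MMI replicate 1 and TSH-MMI replicate 2. With 1 library left out, Acta1 reached 1.83 and Myh2 -1.86. The share turned to -0.0702 on a log2 scale and lay between -0.0162 and 0.0223 points with 1 library left out, with -0.000531 without Empty-MMI replicate 3. The log2 troponin ratio of TSH-MMI against Empty at 1 week ran from -1.86 to 1.35, with -0.415 without TSH-MMI replicate 1. For TSH-MMI against Empty at 4 weeks, Myh1, Myh2 and Myh4 over Myh7 gave 2.56. That value sets 1 library against 1, TSH-MMI replicate 3 with 2 counts of Myh7 and Empty replicate 2 with 72. Myh7 had 0 counts in the other libraries of these groups. Causes were not tested. Of 19 named calls, 2 held at every setting, Mybpc2 and Usp13 in TSH-MMI against Empty at 4 weeks. With 3 libraries a group, no exact test could reach 0.05, and Myh7, Myl2, Tnni1, Tnnc1 and Myh3 rest on few counts.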
